A study of Mus musculus with 8 samples.

Results

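The transcripts of collagen VI and of the basement membrane collagens and proteoglycans were followed in mouse knee cartilage after injury of the anterior cruciate ligament. The 10 genes were taken by name from the table of 20539 genes: the collagen VI chains Col6a1, Col6a2 and Col6a3, the collagen IV chains Col4a1 and Col4a2, the multiplexins Col15a1 and Col18a1, the perlecan gene Hspg2, and the nidogens Nid1 and Nid2. All 10 were found once in the table, and all 10 had the mean of at least 10 reads required for testing, as did 17401 genes in all.

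Cartilage RNA was sequenced 7 days after anterior cruciate ligament transection (ACLT) in 8 libraries, 2 pools (A and B) for each of 4 groups. Mice received 10 mg/kg of GDF8 Ab (REGN647, a human monoclonal antibody against GDF8, also called myostatin, a secreted inhibitor of muscle growth) or of a placebo antibody (PLA Ab, REGN1945). The injured limbs form the groups placebo ACLT and anti-GDF8 ACLT, and the uninjured limbs opposite them the groups placebo control and anti-GDF8 control. The study worked with C57BL/6J and Col1-eGFP mice aged between 4 and 5 months, and the strain behind the cartilage libraries is not given separately. All groups carry an antibody and all control limbs come from animals whose other knee was injured, so no untreated animal is among them, and the limbs of a treatment are not separate mice. The replicates are pools of mice, so the spread behind each p-value is between pools and not between single mice. In the fitted comparisons that spread was estimated from the 2 pools of all 4 groups together. It was also moderated by the spread of other genes.

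Values are read counts scaled to a common library total (CPM), and depth ran from 16.4 M to 28.1 M reads per library. The libraries held much RNA of other tissues beside cartilage. Of the 15 chondrocyte markers, 14 could be tested and their summed share was 0.0893% to 0.362% of reads, while Matn1 stayed at or under 0.641 CPM and was listed at 0 in anti-GDF8 ACLT pool A. Muscle fiber markers took 0.0306% to 7.64% of reads, markers of the red cell lineage 6.95% to 13.2%, and neutrophil markers 2.31% to 3.84%. Muscle markers were low in placebo ACLT (0.0607% and 0.0306%) against placebo control (3.30% and 7.64%), and the anti-GDF8 ACLT pools stood apart from each other (0.237% in pool A and 3.56% in pool B). In pooled tissue, fewer cells of a type and less RNA per cell cannot be told apart.

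Collagen VI forms beaded microfibrils close to the cell surface, and in articular cartilage it marks the pericellular matrix that surrounds each chondrocyte. A basement membrane is a thin sheet built from a collagen IV network and a laminin network, which nidogens and perlecan connect. Adult articular cartilage has no vessels and no continuous basement membrane, although chondrocytes deposit perlecan, nidogens and collagen IV around themselves, and the vessels, nerves, muscle fibers and synovium of a joint carry such sheets.

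In the coordinates of the deposited table the collagen VI genes lie at chr10:76544626-76562002 (Col6a1), chr10:76431596-76459464 (Col6a2) and chr1:90693645-90771693 (Col6a3). Col18a1 is on the same chromosome as Col6a1 and Col6a2, at chr10:76888012-77002382, and Col15a1 is at chr4:47208161-47313167. Hspg2 is at chr4:137196080-137297941, Nid1 at chr13:13612136-13686854 and Nid2 at chr14:19801333-19861855. Reads were summed over whole genes, so no isoform is resolved.

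The levels of the genes, compared per kilobase of the longest GENCODE M21 transcript and averaged over the 8 libraries, followed the order Col6a1 (94.3 CPM per kb), Col6a2 (49.0), Col4a1 (22.3), Col6a3 (17.0), Col4a2 (15.1), Col18a1 (11.1), Nid1 (8.70), Nid2 (2.95), Hspg2 (2.39) and Col15a1 (0.981). The 10 genes together took 0.0544% and 0.0416% of reads in placebo control and 0.273% and 0.277% in placebo ACLT. Under GDF8 Ab the shares were 0.0344% and 0.0478% in the control limb and 0.137% and 0.104% in the injured limb. The injured limbs were thus above the control limbs under both antibodies, and the anti-GDF8 ACLT pools lay between.

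**Figure D1:**
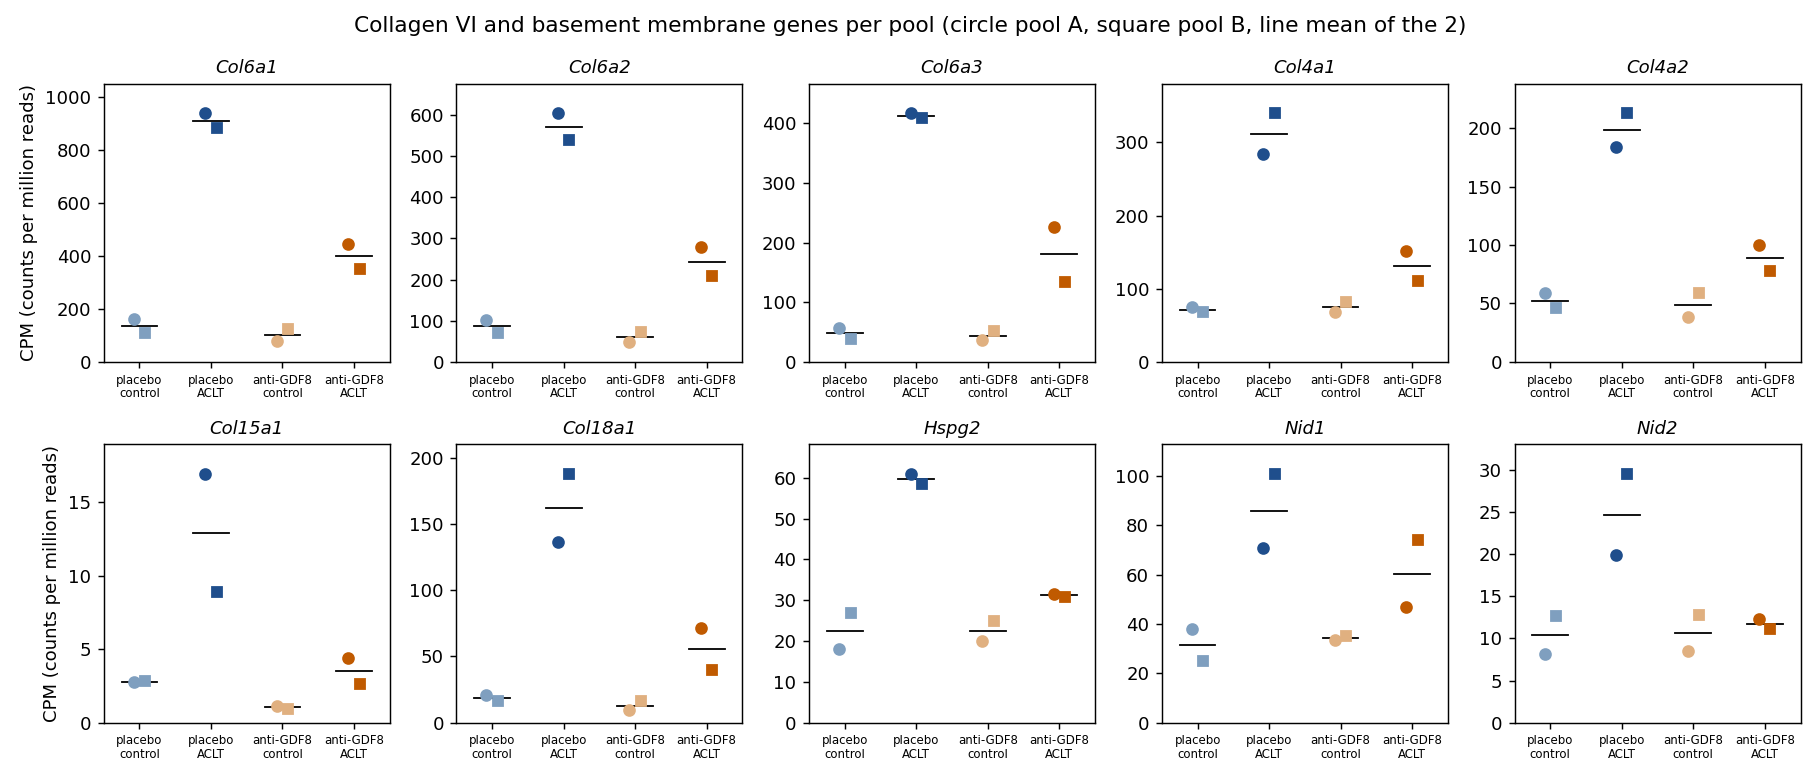
CPM of each gene in each pool by group, on linear axes that start at 0, with circles for pool A, squares for pool B and a line at their mean. Both placebo ACLT pools lie above both placebo control pools for all 10 genes, and both anti-GDF8 ACLT pools lie below both placebo ACLT pools for 9, the exception being Nid1.

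Whether injury changed these transcripts was asked first in the mice given the placebo antibody. All 10 genes rose in the placebo ACLT limbs by limma with Benjamini-Hochberg adjustment over all 17401 genes, in which 11.6% of genes were called higher. Fold changes ran from 2.39 for Nid2 to 8.70 for Col6a3, and the median log2 change of the 10 was 2.12 against 0.17 over all genes. Both placebo ACLT pools were above both placebo control pools for 10 of 10 genes, as for 38.8% of all genes. Leaving out 1 library at a time kept between 8 and 10 of these calls.

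Col6a1, a chain of the collagen VI heterotrimer, stood at 162 and 109 CPM in pools A and B of the placebo control limb and at 939 and 884 CPM in the placebo ACLT limb. The anti-GDF8 mice had 78.7 and 123 CPM in the control limb and 445 and 352 CPM in the injured limb. Placebo ACLT was highest and anti-GDF8 ACLT next, with no overlap among the 2 injured groups and the controls, while the pools of the 2 control groups overlapped. The placebo injury change was 6.87-fold (log2 2.78, SE 0.26, adjusted p = 0.00095).

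Col6a2, the partner chain encoded beside Col6a1 on chromosome 10, gave 103 and 70.1 CPM in the control limb and 604 and 540.1 CPM in the injured limb of placebo mice. Under GDF8 Ab it gave 49.1 and 72.3 CPM in the control limb and 280.0 and 208 CPM in the injured limb. The order of the groups was that of Col6a1, again with overlap only between the control groups, and the placebo injury change was 6.73-fold (log2 2.75, SE 0.25, adjusted p = 0.00095).

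Col6a3, which encodes the largest of the 3 chains, was at 57.5 and 39.0 CPM in the control limb and at 417 and 408 CPM in the injured limb under placebo. The corresponding values under GDF8 Ab were 36.7 and 51.7 CPM and 226 and 135 CPM. Its 8.70-fold rise under placebo (log2 3.12, SE 0.28, adjusted p = 0.00095) was the largest of the 10, with Col18a1 next, and the pools of the placebo ACLT group lay closer together than those of anti-GDF8 ACLT.

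Col6a1 and Col6a2 kept a nearly fixed proportion in every library, while that of Col6a3 varied more. Col6a1 was 1.86 to 2.04 times Col6a2 per kilobase, and Col6a3 was 0.144 to 0.206 times Col6a1. The latter ratio was lowest in the placebo control pools (0.144 and 0.146), against 0.180 and 0.187 in placebo ACLT. Under GDF8 Ab it was 0.189 and 0.170 in the control limb and 0.206 and 0.155 in the injured limb. The log2 values of the chains correlated with r = 0.999 for Col6a1 with Col6a2 and 0.993 for Col6a1 with Col6a3 over the 8 libraries. All chains share the contrast between injured and control limbs. These correlations describe the libraries and carry no test.

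Col4a1 and Col4a2 encode the chains of the collagen IV trimer found in most basement membranes. Col4a1 measured 74.8 and 68.4 CPM in the control limb and 284 and 339.6 CPM in the injured limb of placebo mice. Under GDF8 Ab it measured 68.3 and 81.8 CPM in the control limb and 152 and 110.1 CPM in the injured limb. The control groups overlapped, both anti-GDF8 ACLT pools lay above them, and the placebo rise was 4.34-fold (log2 2.12, SE 0.19, adjusted p = 0.00095).

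Col4a2 measured 58.9 and 45.9 CPM in control limbs and 184 and 213 CPM in injured limbs under placebo, and 38.7 and 59.0 CPM in control limbs and 100.3 and 77.6 CPM in injured limbs under GDF8 Ab. The groups took the order seen for Col4a1, and Col4a2 rose 3.80-fold under placebo (log2 1.93, SE 0.23, adjusted p = 0.0020). The ratio of Col4a1 to Col4a2 per kilobase ran from 1.24 to 1.72 and showed no separation of injured from control libraries.

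The collagen IV genes lie head to head, with Col4a1 on the minus strand at chr8:11248423-11362826 and Col4a2 on the plus strand at chr8:11362805-11499287 in the coordinates of the deposited table, whose build is not stated, so that their ends share 22 bases. Those shared bases are shown because both transcripts start within them. In RefSeq annotation of GRCm38.p6 they are chr8:11312805-11312826, given on the strand of Col4a2 from its first base to the first base of Col4a1.
Col4a1 and Col4a2: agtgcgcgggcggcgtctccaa

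The multiplexins are collagens of basement membrane zones whose interrupted helices carry glycosaminoglycan chains. Col18a1, the source of the fragment endostatin, stood at 21.1 and 16.2 CPM in the placebo control pools and at 137 and 188 CPM after injury. With GDF8 Ab it stood at 9.37 and 16.2 CPM in the control pools and at 71.2 and 40.1 CPM after injury. The injured groups did not overlap each other or the controls, and the placebo rise was 8.65-fold (log2 3.11, SE 0.34, adjusted p = 0.0014). Col18a1 shares 8825 bases with Slc19a1 on the opposite strand (mean 22.5 CPM), and since the counting is not stated to use strand, reads of the shared stretch cannot be told apart.

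Col15a1, the lowest of the 10 genes per kilobase, was at 2.73 and 2.85 CPM in the control limb and at 16.9 and 8.90 CPM in the injured limb under placebo. For anti-GDF8 the control limb had 1.16 and 0.959 CPM and the injured limb 4.41 and 2.66 CPM. Its placebo ACLT pools lay far apart, and anti-GDF8 ACLT pool B was below both placebo control pools. The 4.34-fold rise under placebo (log2 2.12, SE 0.41, adjusted p = 0.011) was lost without placebo ACLT pool A or without placebo control pool B (highest adjusted p = 0.098).

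Hspg2 encodes perlecan, a heparan sulfate proteoglycan that cartilage also holds around its cells. It was at 18.1 and 26.9 CPM in control and 60.9 and 58.4 CPM in injured limbs of placebo mice, against 20.0 and 24.8 CPM in control and 31.6 and 30.8 CPM in injured limbs of anti-GDF8 mice. The pools of each injured group lay close together and above all 4 control pools, and the placebo rise was 2.69-fold (log2 1.43, SE 0.21, adjusted p = 0.0040).

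The nidogens bind laminin to collagen IV. Nid1 was at 38.0 and 25.1 CPM in control and 70.6 and 100.7 CPM in injured limbs of placebo mice, against 33.6 and 35.0 CPM in control and 46.8 and 73.9 CPM in injured limbs of anti-GDF8 mice, whose injured pool B lay within the range of the placebo ACLT pools. Nid1 rose 2.73-fold under placebo (log2 1.45, SE 0.28, adjusted p = 0.011), a call lost without placebo ACLT pool B or placebo control pool B (highest adjusted p = 0.079).

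Nid2 was at 8.11 and 12.6 CPM in control and 19.9 and 29.5 CPM in injured limbs of placebo mice, against 8.49 and 12.7 CPM in control and 12.3 and 11.2 CPM in injured limbs of anti-GDF8 mice. Only the placebo ACLT pools stood above the rest, and the other 3 groups overlapped. The 2.39-fold rise under placebo (log2 1.26, SE 0.31, adjusted p = 0.027) was lost without either placebo ACLT pool or without placebo control pool A (highest adjusted p = 0.15). Nid2 shares 437 bases with Rtraf on the opposite strand (mean 48.8 CPM), whose reads there cannot be told apart.

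The same question was put to the mice given GDF8 Ab. In anti-GDF8 ACLT against anti-GDF8 control, 4 of the 10 genes rose, where 0.598% of all genes were called higher. These were Col6a1 (4.02-fold, log2 2.01, SE 0.26, adjusted p = 0.020), Col6a2 (4.04-fold, log2 2.02, SE 0.25, adjusted p = 0.020), Col6a3 (4.00-fold, log2 2.00, SE 0.28, adjusted p = 0.023) and Col18a1 (4.32-fold, log2 2.11, SE 0.34, adjusted p = 0.032). The calls depended on the libraries in the fit: with 1 library left out, 0 to 5 genes were called, with 0 without anti-GDF8 control pool A or either placebo ACLT pool, 1 without anti-GDF8 ACLT pool A or anti-GDF8 control pool B, and 3 without placebo control pool A. They also fell to 0 when the variance was estimated without a trend or from these 4 libraries alone.

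The other 6 genes did not pass under GDF8 Ab, although all had values above 0. Log2 differences were 1.66 for Col15a1 (adjusted p = 0.16), 0.88 for Col4a2 (0.20), 0.79 for Col4a1 (0.15), 0.78 for Nid1 (0.38), 0.48 for Hspg2 (0.49) and 0.17 for Nid2 (0.90). Both anti-GDF8 ACLT pools were above both anti-GDF8 control pools for 9 genes, Nid2 being the exception, as for 20.2% of all genes. The median log2 difference of the 10 was 1.27, against -0.04 over all genes.

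**Figure D2:**
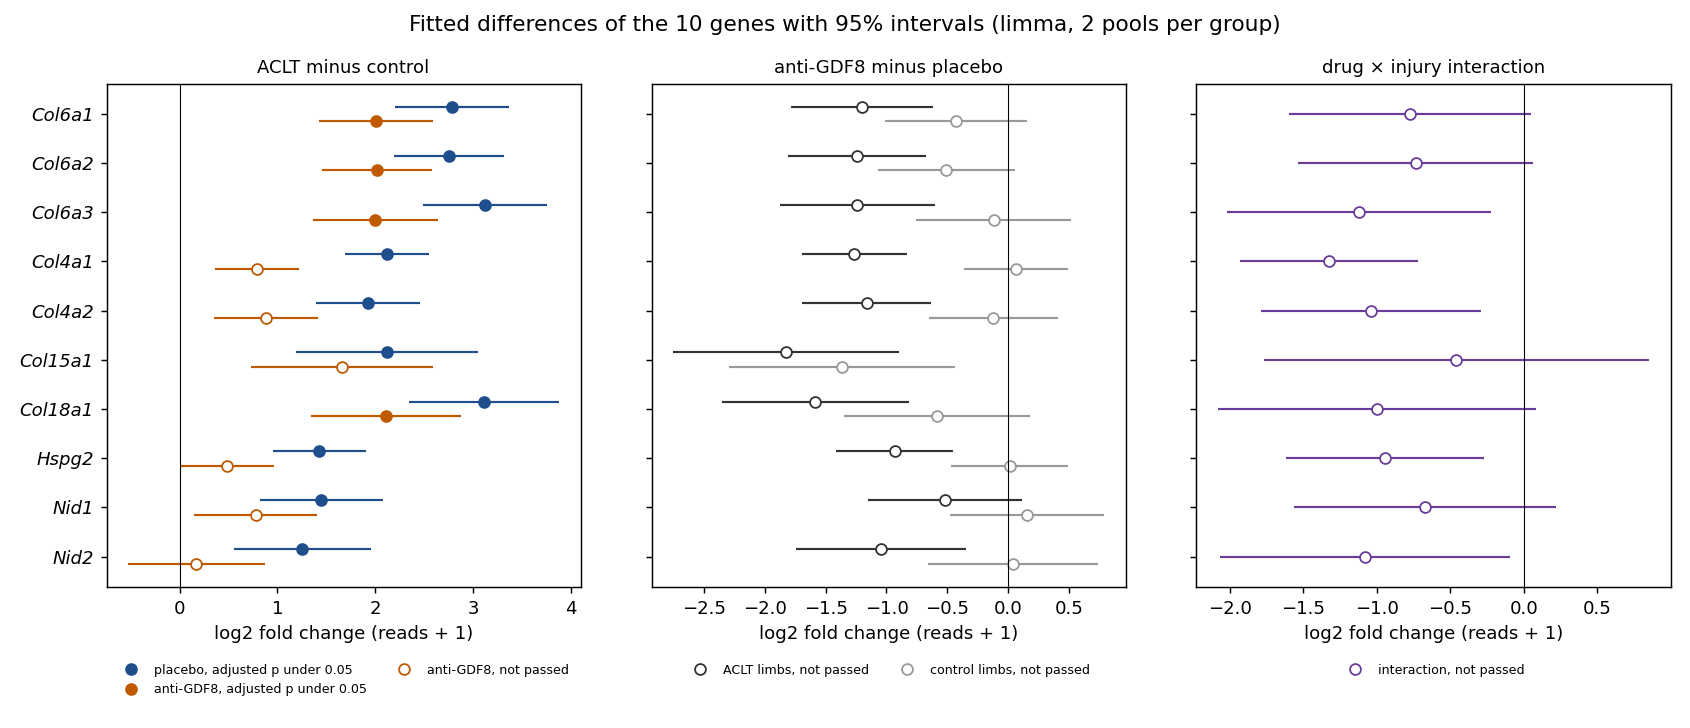
Fitted log2 differences of the 10 genes with 95% intervals, for injury under each antibody (left), antibody in each limb (middle) and the drug × injury interaction (right). Filled points passed an adjusted p of 0.05, which 10 genes did for injury under placebo, 4 for injury under anti-GDF8 and 0 elsewhere.

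The stretches before the start sites of Col6a1, Col6a2, Col6a3 and Col18a1 are shown because these 4 genes were called after injury under both antibodies. Each is the 250 bases before the outermost RefSeq start in GRCm38.p6, on the strand of the gene. They are Col6a1 at chr10:76726045-76726294, Col6a2 at chr10:76623631-76623880, Col6a3 at chr1:90843972-90844221 and Col18a1 at chr10:77166531-77166780, all on the minus strand. Capitals mark matches on either strand to the GC box GGGCGG, the NF-Y box CCAAT, the TATA box TATAAA and the SMAD box CAGAC.
Col6a1: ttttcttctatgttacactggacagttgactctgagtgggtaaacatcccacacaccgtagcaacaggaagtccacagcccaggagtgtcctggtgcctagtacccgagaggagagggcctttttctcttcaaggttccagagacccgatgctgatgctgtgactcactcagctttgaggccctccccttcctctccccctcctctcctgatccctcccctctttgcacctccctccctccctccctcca
Col6a2: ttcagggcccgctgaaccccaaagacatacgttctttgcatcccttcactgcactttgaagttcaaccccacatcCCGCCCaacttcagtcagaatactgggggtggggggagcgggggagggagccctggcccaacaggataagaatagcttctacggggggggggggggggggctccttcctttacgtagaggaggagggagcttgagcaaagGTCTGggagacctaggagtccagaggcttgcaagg
Col6a3: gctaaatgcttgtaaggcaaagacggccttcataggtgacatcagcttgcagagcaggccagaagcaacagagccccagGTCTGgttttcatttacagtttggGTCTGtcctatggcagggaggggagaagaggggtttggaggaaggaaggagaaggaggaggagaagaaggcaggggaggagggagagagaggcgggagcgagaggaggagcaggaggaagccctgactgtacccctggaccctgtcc
Col18a1: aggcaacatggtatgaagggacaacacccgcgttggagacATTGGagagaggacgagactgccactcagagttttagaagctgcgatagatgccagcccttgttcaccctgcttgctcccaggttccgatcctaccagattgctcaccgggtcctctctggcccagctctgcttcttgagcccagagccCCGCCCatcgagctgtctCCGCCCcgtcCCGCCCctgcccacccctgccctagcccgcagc

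Col6a1 had none of the motifs in this window, while Col6a2 had 1 GC box and 1 SMAD box, Col6a3 had 2 SMAD boxes, and Col18a1 had 3 GC boxes and 1 NF-Y box. The 4 stretches thus shared no motif among those searched. Col6a2 and Col18a1 each had a further annotated start that is not shown. The stretch before it had 3 GC boxes and no SMAD box for Col6a2, and 1 SMAD box as the only motif for Col18a1. Which start was used in these libraries was not tested. Of the 9 genes with an entry, Hspg2 had the most GC boxes, with 5. Among 32851 RefSeq promoters cut to the same length, 32.7% held a GC box, 33.8% an NF-Y box, 12.4% a TATA box and 42.2% a SMAD box. These are matches of letters and not sites.

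Whether GDF8 Ab changed the injured cartilage was asked by setting anti-GDF8 ACLT against placebo ACLT. None of the 10 genes was called (0 of 10, as 0% of all genes by limma), and the log2 differences of all 10 were below 0, as were 61.2% of all genes. At an unadjusted p under 0.05, 9 of 10 were lower, where 11.7% of all genes were, and both anti-GDF8 ACLT pools were below both placebo ACLT pools for 9 of 10, where 35.6% of all genes were. The median log2 difference was -1.22, against -0.11 over all genes. Marker lists of several cell types also differed in 1 direction between these groups, with 0 genes called: all 14 tested chondrocyte markers were below 0 (median -1.11), as were all 8 osteoblast markers (median -0.87) and 11 of 12 fibroblast markers (median -0.68), and all 18 muscle fiber markers were above 0 (median 4.02). When the average of the muscle markers was added to the model, the median log2 difference of the 10 genes became -0.90. With the average of 12 endothelial markers added instead, it became -0.35, and 0 of the 10 were called either way. Over the alternative fits, the Col18a1 difference came as near to 0 as -0.074. Both averages differ between the groups compared, so these fits cannot separate antibody from cell mixture. The part of each cell type in the differences of the 10 genes was not tested.

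The log2 differences of the collagens in the injured limb were -1.20 for Col6a1 (95% interval -1.78 to -0.62), -1.24 for Col6a2, -1.24 for Col6a3, -1.26 for Col4a1 (-1.69 to -0.84), -1.16 for Col4a2, -1.82 for Col15a1 (-2.75 to -0.90) and -1.58 for Col18a1. Hspg2 gave -0.93, Nid2 -1.05, and Nid1, whose pools overlapped, -0.52 (-1.15 to 0.11). Adjusted p ran from 0.12 to 0.37. Without anti-GDF8 ACLT pool A, which leaves pool B with its high muscle marker share as the lone pool of its group, 6 genes were called lower (Col6a1, Col6a2, Col6a3, Col4a1, Col4a2 and Col18a1), where 2.66% of all genes were called. Without any other library 0 of 10 were called.

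Whether the antibody changed the uninjured cartilage was asked in the control limbs. None of the 10 passed (0%), with 6 log2 differences below 0 and 4 above, from -1.36 for Col15a1 to 0.15 for Nid1. The 95% intervals were -0.37 to 0.49 for Col4a1, -0.47 to 0.49 for Hspg2 and -1.01 to 0.15 for Col6a1, so a difference of the size seen for Col4a1 in the injured limb lay outside the interval of Col4a1 in the control limb. Col15a1 was the only gene lower at an unadjusted p under 0.05 (adjusted p = 0.89 by limma), where 1.58% of all genes were, and its anti-GDF8 control pools (1.16 and 0.959 CPM) lay below both placebo control pools.

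The drug × injury interaction tests whether the injury difference itself differed between antibodies. None of the 10 passed (0%), and all 10 values were below 0, as were 67.5% of all genes. At an unadjusted p under 0.05 by limma, 5 were lower, where 7.67% of all genes were. These were Col4a1 (-1.33, 95% interval -1.93 to -0.72), Nid2 (-1.08, -2.07 to -0.10), Col6a3 (-1.12, -2.02 to -0.22), Col4a2 (-1.04, -1.79 to -0.29) and Hspg2 (-0.94, -1.62 to -0.27), and the smallest adjusted p was 0.45. Col6a1 (-0.77, -1.60 to 0.05) and Col15a1 (-0.46, -1.77 to 0.85) had intervals that reached 0. Of the 10, Col4a1 alone passed without anti-GDF8 ACLT pool A (adjusted p = 0.015), where 1.75% of all genes were called.

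When the antibodies were pooled, 8 of the 10 genes were higher in all 4 ACLT pools than in all 4 control pools, as were 11.7% of all genes, and Col15a1 and Nid2 were not. In the exact permutation test of 4 ACLT against 4 control libraries (two-sided, 70 regroupings), those 8 had p = 0.029, the smallest that 4 against 4 can give, while Col15a1 had p = 0.086 and Nid2 p = 0.17. The 2 limbs come from the same mice, which this test does not take into account.

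The balance between collagen VI and collagen IV also moved with injury. Per kilobase, Col6a1 was 3.49 and 2.56 times Col4a1 in placebo control and 5.34 and 4.20 times in placebo ACLT. Under GDF8 Ab the ratio was 1.86 and 2.43 in the control limb and 4.74 and 5.17 in the injured limb. All 4 injured libraries were above all 4 control libraries, and the injured groups of the 2 antibodies overlapped.

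**Figure D3:**
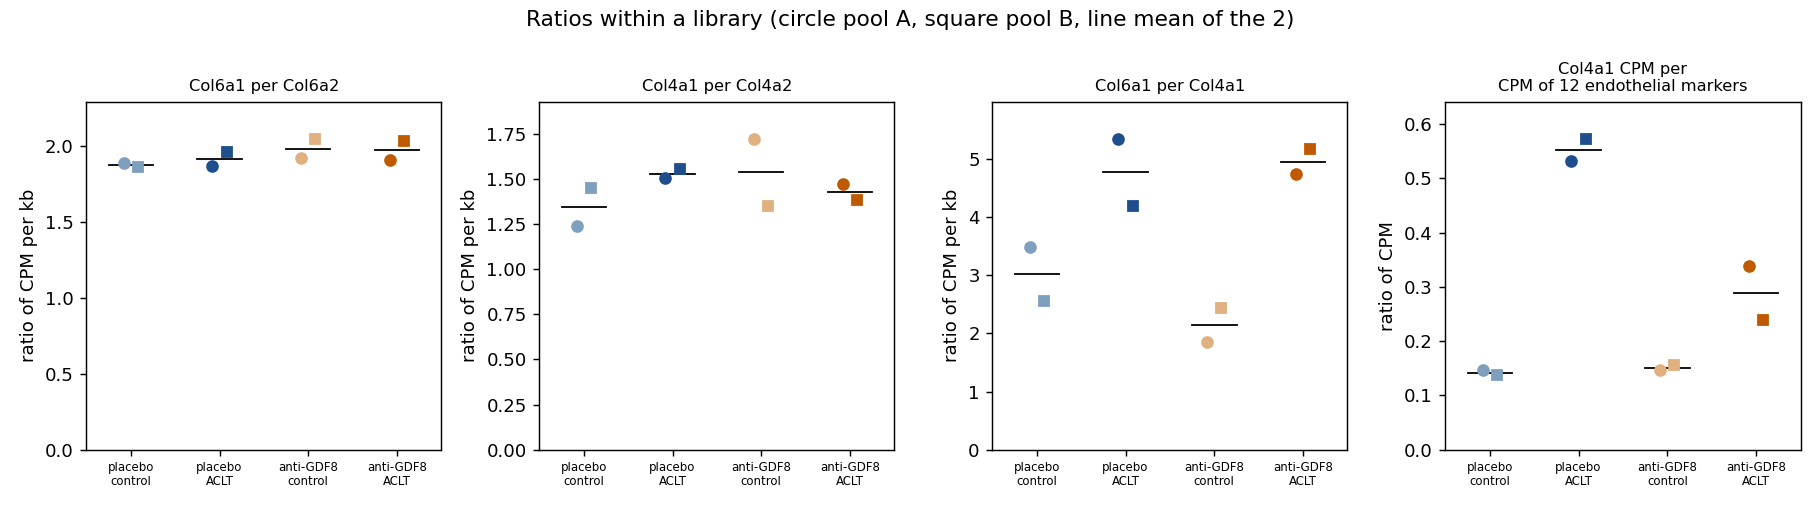
Ratios within each library by group, per kilobase for the collagen pairs and as CPM for Col4a1 against 12 summed endothelial markers, with circles for pool A, squares for pool B and a line at their mean. The Col6a1 to Col6a2 ratio stays between 1.86 and 2.04, whereas the Col6a1 to Col4a1 ratio and the Col4a1 to endothelial ratio are higher in all 4 ACLT pools.

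Vessel walls, muscle fibers and fibroblasts are rich sources of these proteins, so the markers of such cells were read beside them. The 12 endothelial markers, all measured and none at 0, summed to 0.0512% and 0.0499% of reads in control and 0.0533% and 0.0593% in injured limbs of placebo mice, against 0.0468% and 0.0525% in control and 0.0448% and 0.0461% in injured limbs of anti-GDF8 mice. Of these 12, 1 rose under placebo (Emcn, where 11.6% of all genes were called higher) and 1 fell (Vwf), and 0 were called under GDF8 Ab. Vwf, with 124 to 214 CPM, weighed most in the sum, and the single markers leaned the way of the 10 genes. After placebo injury 11 of 12 had log2 differences above 0 (median 0.51), as did 61.7% of all genes. In anti-GDF8 ACLT against placebo ACLT 11 of 12 were below 0 (median -0.50), as were 61.2% of all genes. After injury under GDF8 Ab 4 of 12 were above 0 (median -0.11). Col4a1 per CPM of the endothelial markers was 0.146 and 0.137 in control and 0.532 and 0.572 in injured limbs under placebo, and 0.146 and 0.156 in control and 0.339 and 0.239 in injured limbs under GDF8 Ab. This ratio was higher in all 4 injured libraries than in all 4 control libraries, and the part of endothelial RNA in the rise of Col4a1 was not tested.

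Most fibroblast markers moved with the genes. The 12 on the list, with Prg4, Dcn, Lum and Pdgfra among them, summed to 0.522% and 0.277% in control and 1.35% and 1.37% in injured limbs under placebo. Under GDF8 Ab they summed to 0.383% and 0.355% in control and 0.75% and 0.754% in injured limbs. Prg4 and Dcn weighed most in the sums of the injured limbs, with 6123 and 4003 CPM in placebo ACLT pool A. The sums, and the ratios to them, thus follow these genes more than the others, and which cells they came from was not tested. Pi16 was at 79.0 and 72.8 CPM in placebo control and at 105 and 58.1 CPM in placebo ACLT. Gsn was at 1285 and 863 CPM in placebo control and at 1409 and 1346 CPM in placebo ACLT. Of the 12, 9 rose under placebo, where 11.6% of all genes did, and 4 under GDF8 Ab, where 0.598% did. Col4a1 per CPM of the fibroblast markers ran from 0.0143 to 0.0249 with the injured and control libraries overlapping, and Col6a1 per CPM of these markers was 0.0205 to 0.0392 in control limbs and 0.0467 to 0.0697 in injured limbs. Hspg2 per CPM of these markers also overlapped. Its mean was 0.0066 in control and 0.0044 in injured limbs under placebo, and 0.0061 and 0.0041 under GDF8 Ab. The part of fibroblast RNA in the rise of the 10 genes was not tested.

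Macrophage markers also moved with the genes, and osteoblast and Schwann cell markers did so only in part. The 9 macrophage markers summed to 0.0738% and 0.0642% of reads in control and 0.141% and 0.159% in injured limbs of placebo mice, against 0.0712% and 0.0738% in control and 0.105% and 0.109% in injured limbs of anti-GDF8 mice, the order of groups seen for the 10 genes. Of these 9, 7 rose under placebo (11.6% of all genes) and 3 under GDF8 Ab (0.598% of all genes). All 8 osteoblast markers had log2 differences above 0 after placebo injury (median 0.63), where 61.7% of all genes did. Of these 8, 1 was called higher, where 11.6% of all genes were. Under GDF8 Ab 6 of the 8 were above 0 (median 0.09) and 0 were called. The 6 tested Schwann cell markers were split after placebo injury, with 3 above 0 and 3 below (median -0.04), and 2 were called higher. Of the 14 tested chondrocyte markers, 9 had log2 differences below 0 after placebo injury (median -0.50), where 38.3% of all genes did. Under GDF8 Ab 13 of the 14 were below 0 (median -1.13), where 55.6% of all genes were, and 0 were called under either antibody. The part of these cells in the result was not tested.

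Muscle fiber markers moved against the genes, with 17 of 18 lower in placebo ACLT than in placebo control. The pericyte and smooth muscle list gave 2 of 12 that rose and 4 that fell in the same comparison. Over all genes, 11.6% were called higher there and 701 of 17401 lower. Des weighed most in the control sums of this list, with 383 and 1152 CPM in placebo control and 16.9 and 15.1 CPM in placebo ACLT. From placebo control to placebo ACLT, Rgs5 went from 53.2 and 35.4 to 141 and 153 CPM. Pdgfrb went from 50.2 and 55.8 to 94.0 and 110 CPM, whereas Myh11 went from 40.3 and 33.1 to 14.2 and 16.3 CPM. In anti-GDF8 ACLT, Rgs5 was at 54.1 and 68.4 CPM and Pdgfrb at 59.5 and 50.2 CPM. With the mean of the muscle markers as a covariate, the placebo injury differences of the 10 genes stayed above 0, from 1.26 for Nid2 to 2.35 for Col6a1 on the log2 scale, but 0 were called, as was 0.00575% of all genes. With the mean of the endothelial markers as a covariate they ran from 0.56 for Nid2 to 2.62 for Col15a1, with 0 called of the 10 and 0 of all genes.

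**Figure D4:**
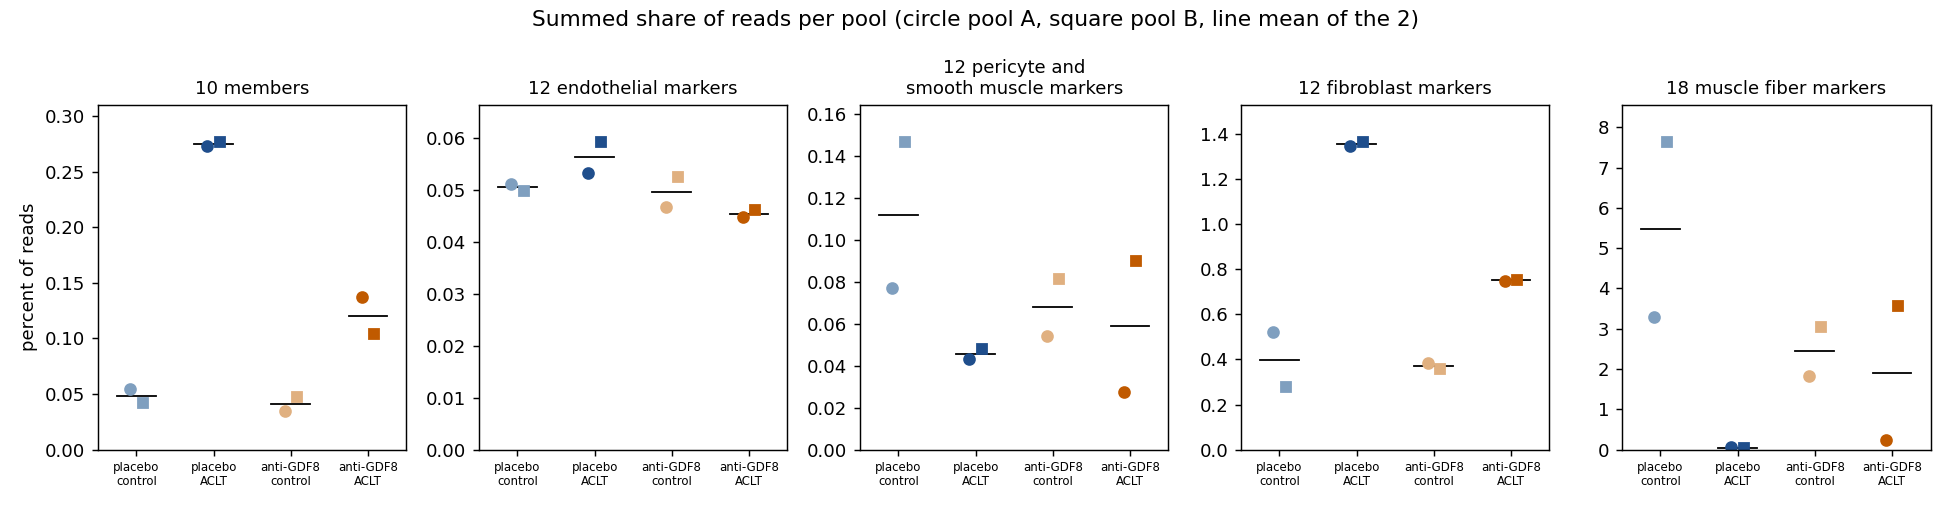
Summed share of reads, in percent, of the 10 genes and of markers of endothelium, pericytes and smooth muscle, fibroblasts and muscle fibers in each pool by group, with circles for pool A, squares for pool B and a line at their mean. The 10 genes and the summed fibroblast markers, in which Prg4 weighs most, share the order of the groups. The summed endothelial markers, in which Vwf weighs most, stay between 0.0448% and 0.0593%, and the muscle markers are lowest in placebo ACLT. Des weighs most in the pericyte and smooth muscle sums of the control pools.

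The other chains of collagens IV and VI were scarce. Of these, 7 were measured, 5 could be tested and 0 passed in any comparison. The 3 highest were Col4a5, with 0.122 to 2.57 CPM over the 8 libraries, Col6a6, with 0 to 3.69 CPM, and Col4a3, with 0.249 to 1.82 CPM. Every one of these values was below the lowest value of any collagen IV or VI chain among the 10 genes.

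Laminins, the other network of a basement membrane, moved in part. Of 10 tested chains, 4 rose under placebo, where 11.6% of all genes did, and 0 under GDF8 Ab, where 0.598% did. The 3 highest were among them: Lamb2 (1.59-fold, log2 0.67, adjusted p = 0.018), Lamc1 (1.80-fold, log2 0.85, adjusted p = 0.043) and Lamb1 (4.89-fold, log2 2.29, adjusted p = 0.0030). The remaining one, Lama4, a chain of vessel and mesenchymal laminins, was named after its values were seen (3.98-fold, adjusted p = 0.0034). Lamb1 measured 18.2 and 9.57 CPM in control and 58.4 and 72.0 CPM in injured limbs of placebo mice, against 11.1 and 10.3 CPM and 27.0 and 18.7 CPM under GDF8 Ab, the order of groups seen for Col4a1.

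Among 12 tested other components of the sheet, 4 rose under placebo (11.6% of all genes) and 1 under GDF8 Ab (0.598% of all genes). Sparc, which binds collagen IV and had the highest CPM of the list, stood at 1395 and 2322 CPM in control and at 7883 and 4486 CPM in injured limbs of placebo mice (3.30-fold, adjusted p = 0.024). Fbln2, a fibulin that binds nidogens, rose under both antibodies, 4.77-fold under placebo (adjusted p = 0.00067) and 2.78-fold under GDF8 Ab (adjusted p = 0.015). Smoc2, a relative of Sparc, gave a log2 difference of -0.13 under placebo (adjusted p = 0.75). The 2 other genes that rose under placebo, Ntn4 (2.74-fold, adjusted p = 0.0055) and Smoc1 (2.22-fold, adjusted p = 0.015), were named after their values were seen.

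Of 16 receptors and cell surface partners, 7 rose under placebo, where 11.6% of all genes did, and 0 under GDF8 Ab, where 0.598% did. Under GDF8 Ab 9 of the 16 had log2 differences above 0 (median 0.31). Itgb1, the integrin subunit shared by the collagen and laminin receptors, rose 1.61-fold (adjusted p = 0.041) and Sdc2, a syndecan, 5.19-fold (adjusted p = 0.0041). Itga6, a subunit of laminin receptors, gave a log2 difference of 0.04 (adjusted p = 0.94).

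The enzymes and chaperones that fold and crosslink collagen had 11 of 15 genes that rose under placebo, where 11.6% of all genes did. Under GDF8 Ab 0 of 15 were called, where 0.598% of all genes were, and 13 had log2 differences above 0 (median 0.46). P4hb, a subunit of prolyl 4-hydroxylase, rose 1.52-fold (adjusted p = 0.036), Serpinh1, the collagen chaperone, 3.58-fold (adjusted p = 0.0049), and Colgalt1, which glycosylates collagen, 1.79-fold (adjusted p = 0.012). Serpinh1 was at 137 and 219 CPM in control and 663 and 581 CPM in injured limbs of placebo mice, against 99.7 and 157 CPM in control and 326 and 233 CPM in injured limbs of anti-GDF8 mice, so the groups again took the order of Col6a1.

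Proteases able to cleave these proteins rose in 8 of 12 cases under placebo (11.6% of all genes) and in 2 under GDF8 Ab (0.598% of all genes). Mmp9, a gelatinase of neutrophils and osteoclasts among other cells and the gene with the highest CPM of the list, ran from 1319 to 2272 CPM over the 8 libraries (log2 difference -0.32 under placebo, adjusted p = 0.34). The cathepsins Ctsb (2.14-fold, adjusted p = 0.0066) and Ctss (2.87-fold, adjusted p = 0.0032) rose under placebo. The 2 that rose under GDF8 Ab were Mmp2 (4.60-fold, adjusted p = 0.025) and Mmp3 (19.3-fold, adjusted p = 0.032), named after their values were seen. In these 6 lists 0 genes fell under placebo, and 0 passed between the antibodies in either limb or in the interaction.

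Genes whose log2 values followed Col6a1 closely over the 8 libraries, among 12053 with a mean of at least 100 reads, included Pcolce, which enhances procollagen processing (r = 0.997), and Gpx8 (0.994). Pcolce was at 75.1 and 58.7 CPM in control and 367 and 319 CPM in injured limbs of placebo mice, against 48.7 and 59.1 CPM in control and 184 and 144 CPM in injured limbs of anti-GDF8 mice. Those nearest Col4a1 were Gngt2 (0.994), Rhoc (0.992) and Lrp1 (0.992), and Lrp1, an endocytic receptor, was at 249.7 and 219 CPM in control and 581 and 611 CPM in injured limbs of placebo mice, against 244 and 236 CPM in control and 370.4 and 326 CPM in injured limbs of anti-GDF8 mice. Among the 10 genes themselves, Col18a1 lay nearest to collagen VI (r = 0.986 to 0.990 with its chains) and Nid2 nearest to Hspg2 (r = 0.934).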

How the data were processed

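The authors pooled cartilage RNA of mice. The submitters' processing notes list the tools STAR 2.7.3a, DESeq2 and Partek, and both mm10 and mm39 as builds, with no role given for any of them. The authors deposited CPM per gene, each library scaled to the same total, and all 8 sample columns were used. Library depth (16.4 M to 28.1 M reads, median 20.1 M) was inferred from the smallest steps between values. Among values below 200 reads, only 69.7% to 75.5% came out whole (tolerance 0.02), so whole reads were not recovered and no count model was run.

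The analysis used log2(CPM × median depth + 1 read), so fold changes are on the log2(reads + 1) scale and understate changes of low genes such as Col15a1. Genes whose mean reached 10 reads, equal to 0.498 CPM, numbered 17401 and were fitted with limma 3.58.1 in R 4.3.3 in 1 model of 4 group means (eBayes with trend, 4 residual degrees of freedom), with Benjamini-Hochberg adjustment over all of them and a threshold of 0.05. The fit was tested on simulated data. Promoters came from RefSeq (GRCm38.p6), with entries for 9 of the 10 genes, and transcript lengths from GENCODE M21. The starts in the deposited table differ from those of M21 for all but 2.23% of genes, so the builds were not mixed. Further software was pandas 2.3.3, numpy 2.4.6 and matplotlib 3.10.9 under Python 3.11.15.

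The 10 genes and all lists were chosen with earlier results of these data known. Named beyond the 10 are the 3 genes of each list with the highest mean CPM and the 3 genes nearest to Col6a1 and to Col4a1, of which 1 is not reported here. Groups and pool letters follow the labels. In anti-GDF8 control the letters run against the numbers in the titles, and the 4 control samples are tagged quadricep under treatment but cartilage under title, tissue and source. Alternatives covered the pseudocount, filter, scaling, variance model, covariates, a replicate block and each pool left out.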

Additional observations from a re-analysis of the deposited data

How the results depend on the processing

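The results rest on 2 pools per group and on a table without whole reads. Against the 10 placebo injury calls, 0 were called with the muscle marker mean and 0 with the endothelial marker mean as a covariate, both of which differ between the groups compared. The 4 anti-GDF8 injury calls became 0 without a variance trend and 0 with only the libraries of the groups compared. With 1 pool left out, the counts were 8 to 10 for placebo injury, 0 to 5 for anti-GDF8 injury, 0 to 6 between antibodies in the injured limb, 0 in the control limb and 0 to 1 for the interaction. Where this leaves 1 pool in a group, that pool is assumed to vary like the others. The cause of these losses was not tested. Rescaling by a trimmed mean moved the median log2 change of all genes after placebo injury from 0.17 to -0.05 and that of the 10 genes from 2.12 to 1.90, with the Nid2 call lost, as it was under quantile normalization and without a trend.

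Samples of equal pool letter are not said to come from the same mice, so the pairing is only a shared letter. Deviations from the group means in control and ACLT pools of equal letter correlated at 0.041 under placebo and 0.30 under GDF8 Ab. By title number the values were 0.041 and -0.30. Whether equal letters mark the same mice was not tested. With a replicate block by letter or by title number the counts stayed at 10, 4, 0, 0 and 0.

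Most reversals of sign were of values near 0 that no fit called. In the control limb, rescaling turned Col4a1 to -0.029, Hspg2 to -0.082 and Nid2 to -0.053, quantile normalization turned Hspg2 to -0.032, and leaving muscle, red cell and neutrophil markers out of the total turned Hspg2 to -0.0029. There, Col4a1 became -0.026 with the muscle and -0.0032 with the endothelial covariate, and Nid2 -0.034 with the latter. In the interaction, Col15a1 became 0.15 with the muscle covariate, and Col6a1 0.11, Col6a2 0.051 and Col18a1 0.66 with the endothelial one. With 1 pool left out, control limb values ran from -0.40 to 0.16 for Col6a3, -0.43 to 0.18 for Col4a2, -0.067 to 0.19 for Col4a1, -0.27 to 0.29 for Hspg2, -0.15 to 0.45 for Nid1 and -0.28 to 0.36 for Nid2. The Col15a1 interaction ran from -0.92 to 0.00035 and the Nid2 difference after injury under GDF8 Ab from -0.12 to 0.46.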
